A study of Mus musculus with 9 samples.

Results

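The cytochrome P450 genes were examined in RNA sequencing of whole mouse kidney. They were taken as every row of the deposited expression table whose symbol read Cyp, digits, letters and closing digits, leaving out Cyp27b1 and Cyp24a1. This rule found 82 of 26139 rows. Of these, 44 reached an FPKM (reads scaled to gene length and library total) of 0.1 in at least 3 of the 9 libraries and are described. The table held 89 symbols that start with Cyp. The pattern also left out 5 of them, Cyp4a12a, Cyp4a12b, Cyp4a30b, Cyp4x1os and Cyp51.

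The 9 libraries fell into 3 groups of 3. The WT group was C57/BL6 mice gavaged with saline. The IgAN group carried the Itgam-IRES-hCD89 allele, which places human CD89, a receptor for the Fc part of IgA, behind the myeloid gene Itgam, and was gavaged with saline as well. The GQYS group carried the same allele and was gavaged daily for 5 months with GQYS, Gui-qi-yi-shen granules. All groups were thus gavaged by their treatment labels, although the titles call the WT and IgAN kidneys untreated, and IgAN and GQYS shared the knock-in. Itgam, which drives the allele, is a gene of myeloid cells. The age of the animals is not given in the sources used here. Whether each library is 1 animal is not given either. The p-values therefore measure spread among libraries, part of which may be technical.

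P450 enzymes are haem proteins, mostly of the endoplasmic reticulum, that insert an oxygen atom into fatty acids, sterols, retinoids, drugs and toxicants, with electrons from P450 reductase, or from ferredoxin in mitochondria. In the kidney most of this activity sits in the proximal tubule, where some family 4 enzymes hydroxylate arachidonic acid to 20-HETE and the 2c and 2j subfamilies epoxidise it to EETs, lipids that act on vessels and salt transport. Several of the genes are switched by ligand-bound receptors, family 1 by the aryl hydrocarbon receptor AHR and Cyp4a genes by PPAR-alpha, and several differ between male and female mouse kidneys.

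The promoter sequences of 5 members are shown, either for the levels described next or for a match to the letters of an AHR motif. They come from the RefSeq promoter table on build GRCm38.p6, in which 34 of the 44 described members had an entry, and annotated transcript bases were left out. Cyp4b1 was the most abundant member in every library, and its window ends 3 bases before the start. Cyp1a1 and Cyp1b1 are the textbook AHR targets. Cyp2a4 and Cyp2a5 are a pair that RNA reads can hardly separate. Capitals mark TATAA, and in Cyp1a1 and Cyp1b1 the letters GCGTG, the core of the AHR response element, or CACGC where it lies on the other strand. The windows are chr4:115647724-115647841 (minus strand), chr9:57697493-57697612 (plus), chr17:79715062-79715181 (minus), chr7:26307072-26307168 (plus) and chr7:26835219-26835304 (plus), in the order of the lines, each 5′ to 3′.
Cyp4b1: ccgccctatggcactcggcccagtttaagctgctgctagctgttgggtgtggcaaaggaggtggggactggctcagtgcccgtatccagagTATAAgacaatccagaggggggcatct
Cyp1a1: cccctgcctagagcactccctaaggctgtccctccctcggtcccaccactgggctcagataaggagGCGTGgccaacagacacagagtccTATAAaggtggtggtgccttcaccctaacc
Cyp1b1: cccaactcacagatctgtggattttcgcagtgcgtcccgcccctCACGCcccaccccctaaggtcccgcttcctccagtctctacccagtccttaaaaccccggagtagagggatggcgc
Cyp2a4: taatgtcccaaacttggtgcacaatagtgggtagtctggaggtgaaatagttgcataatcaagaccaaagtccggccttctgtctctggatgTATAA
Cyp2a5: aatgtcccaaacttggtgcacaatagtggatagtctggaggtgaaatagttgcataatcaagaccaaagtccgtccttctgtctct

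Motifs were counted in the 250 bases before each start. TATAA on the gene's strand from 20 to 40 bases before the start was present in 8 of 34 described members (23.5%), against 3.83% of 27025 promoters. These 8 were Cyp1a1, Cyp2a4, Cyp2a5, Cyp2d10, Cyp2d26, Cyp2d9, Cyp2e1 and Cyp4b1, so the 2 most abundant members were among them. Cyp2a4 and Cyp2a5 are near copies, and Cyp2d9 and Cyp2d10 are close in sequence, so the 8 are not independent cases. Cyp4a10, Cyp4a14 and Cyp4a31 had no entry and were not counted. TATAA anywhere in the 250 bases on either strand was in 12 of 34 (35.3%), against 23.5% of all promoters. GCGTG on either strand was in 11 of 34 (32.4%), against 28.2% of all. AGGTCA, a nuclear receptor half-site counted on both strands, was in 3 of 34 (8.82%; Cyp2f2, Cyp2j5 and Cyp3a11), against 13.8% of all. A match is a string of letters and shows no bound factor. Of the upstream bases of Cyp2a4 and Cyp2a5, 245 of 249 were identical (98.4%).

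Between 30564947 and 38161564 gene-assigned reads per library were recovered from the whole-read steps in the values. Kidney markers were present throughout, with Slc34a1 at 1437 to 1889 FPKM and Umod at 942 to 1665. All 9 libraries had Xist at no more than 0.0073 FPKM and Ddx3y at 5.21 to 10.1, a male pattern throughout. WT replicate 1 stood apart, with 18.6% of its reads from mitochondrial genes against 7.81% to 13.3% in the others, and 12 of the 44 members had their lowest value there. WT replicate 3 held fat markers that add to 15.5 FPKM, against at most 0.182 in any IgAN or GQYS library. The described members together made up 4377 FPKM in WT replicate 1 and 4557 in IgAN replicate 1, the lowest sums, and 6112 in WT replicate 2, the highest.

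A few genes made most of the summed FPKM of the described members. The P450 genes outside the rule are not in this sum. Cyp4b1, an enzyme that activates protoxicants such as ipomeanol and hydroxylates fatty acids, had the 13th highest mean of the whole table and 34.4% to 43.9% of the members' summed FPKM. Cyp2e1, which oxidises ethanol and small solvents, ranked 34, Cyp2j5, a renal arachidonic acid epoxygenase, ranked 66, and Cyp2a4, a testosterone 15α-hydroxylase, ranked 156. The 3 most abundant members gave 66.8% to 77.1% of the sum in each library. By mean, 9 members lay at 100 FPKM or more, 8 from 10 to 100, 12 from 1 to 10 and 15 below 1.

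**Figure D1:**
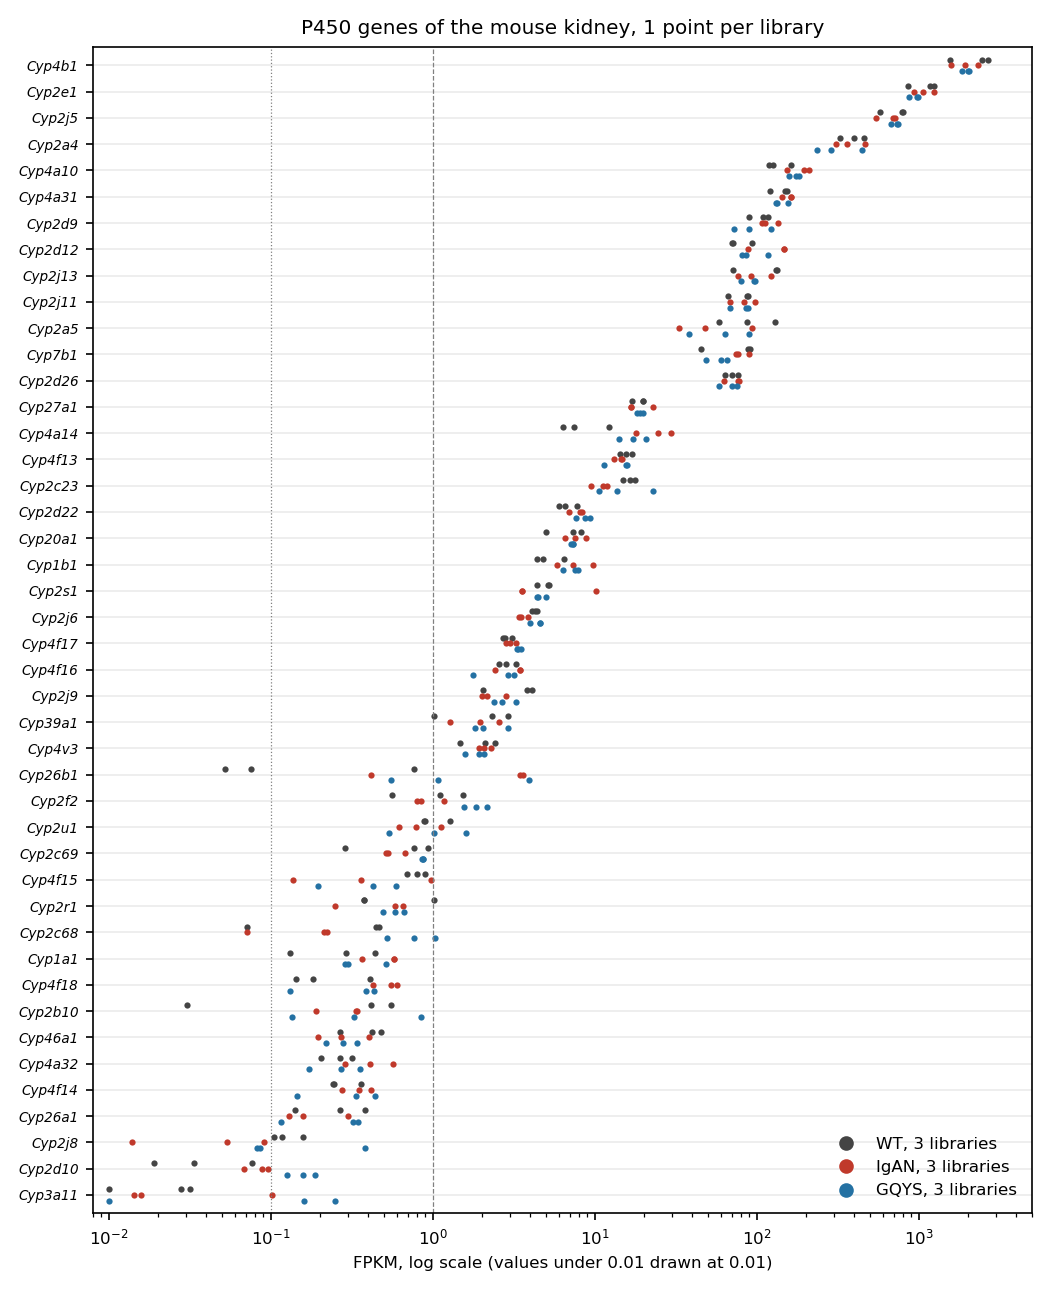
FPKM of the 44 described P450 genes on a log axis, 1 point per library and ordered by mean, with WT, IgAN and GQYS drawn as separate rows of points within each gene. The dotted line marks 0.1 FPKM and the dashed line 1 FPKM; levels span from Cyp4b1, at 1566 to 2681, to Cyp3a11, at 0 to 0.249, and most genes' 3 groups overlap.

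The remaining 38 members lay below the description threshold. Of these, 7 reached 0.1 FPKM in 1 or 2 libraries, Cyp26c1, Cyp2a12, Cyp2c29, Cyp2c38, Cyp2c55, Cyp2c70 and Cyp4f39, and 31 in none. Listed at 0 in all 9 were 7 genes, among them Cyp7a1, the first enzyme of bile acid synthesis in liver, and Cyp11b1 and Cyp11b2, which make corticosterone and aldosterone in the adrenal gland. None of the 5 steroid hormone synthesis genes of the table reached the threshold, and the 5 adrenal markers in the table summed to 1.71 to 4.08 FPKM. Most of that was Akr1b7, at 1.54 to 3.67, while Star was at no more than 0.291 and Dbh at 0. Just inside the threshold stood Cyp2d10 and Cyp3a11, at 0.1 FPKM or more in 3 libraries with highest values of 0.187 and 0.249, and Cyp2j8, in 4 libraries with a highest value of 0.383. Just outside stood Cyp2c29, with its 2 highest values at 0.236 and 0.185, and Cyp2c55, at 0.187 and 0.11.

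Some members are so alike that their values depend on how the authors assigned reads between copies, which the sources used here do not state. The coding sequences of Cyp2a4 and Cyp2a5 were 98.4% identical, those of Cyp4a10 97.2% with Cyp4a32 and 96.6% with Cyp4a31, those of Cyp2c68 and Cyp2c69 96.5%, those of Cyp2d9 92.5% with Cyp2d10 and 92.1% with Cyp2d12, and those of Cyp4f16 and Cyp4f37 91.9%. Values of these genes are uncertain as values of 1 gene. The closest P450 to Cyp4a14 was Cyp4a30b at 79.6%, and no P450 of the table was 90% identical to Cyp4b1, Cyp2e1, Cyp2c23 or Cyp2f2.

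The question of the design is whether the knock-in changed kidney gene expression and whether GQYS changed it in turn. Differences were tested with limma on log2(FPKM + 1) over all 9 libraries, among 11617 genes at 1 FPKM or more in at least 3 libraries, of which 30 were members. P-values were adjusted by Benjamini-Hochberg over all 11617, and a gene was called at an adjusted p under 0.05. The 3 comparisons share libraries, so their results are not independent of each other.

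In IgAN against WT no P450 gene was called. Of the 30 tested members 0 passed, against 0.353% of all genes (41 of 11617), and voom on the recovered reads called 0 members too. At an unadjusted p under 0.05 stood 6 of 30 members, 20%, against 10.3% of all genes. These 6 were Cyp4a14, Cyp4a10, Cyp2d12, Cyp1b1 and Cyp26b1, higher in IgAN by their means, and Cyp2c23, lower. Cyp26b1 reached the 1 FPKM of the test in IgAN and GQYS libraries alone. It thus entered the count through the groups where it was higher. The median log2 change of the 30 was 0.05, against 0.02 over all genes, and 25 changed by less than 0.5. For 24 of them the 95% interval included 0.

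In GQYS against IgAN 0 of 30 members passed as well, against 0.198% of all genes (23 of 11617), with 0 by voom. At an unadjusted p under 0.05 stood 2 members, 6.67%, against 10.4% of all genes, namely Cyp2f2 and Cyp2j6, both higher in GQYS. The median was -0.06, against 0.01 over all genes, and 28 of 30 intervals included 0. In GQYS against WT 0 of 30 members passed and 0% of all genes did. Here 4 members, 13.3%, stood at an unadjusted p under 0.05, against 4.43% of all genes, namely Cyp4a14, Cyp2f2, Cyp1b1 and Cyp2d22, all higher in GQYS, and voom called 0.

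With the test extended to 15821 genes at 0.1 FPKM or more in at least 3 libraries, which takes in all 44 described members, 0 passed in each comparison, against 0.284%, 0.202% and 0% of all genes in the same order. The FPKM ranges of the groups were also compared. In IgAN against WT the 3 values of IgAN all lay above those of WT for 2 of 44 members (8.53% of the 15821 genes did so) and below for 3 (5.87%). In GQYS against IgAN they lay above for 6 (11%) and below for 1 (8.5%). In GQYS against WT they lay above for 5 (7.14%) and below for 1 (2.85%). The counts of 6 and 5 include Cyp2d10, which reached 0.1 FPKM in the 3 GQYS libraries alone and therefore had to lie above. The count of 3 below WT includes Cyp2j8, which met the threshold through the WT libraries and reached 0.1 FPKM in no IgAN library.

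**Figure D2:**
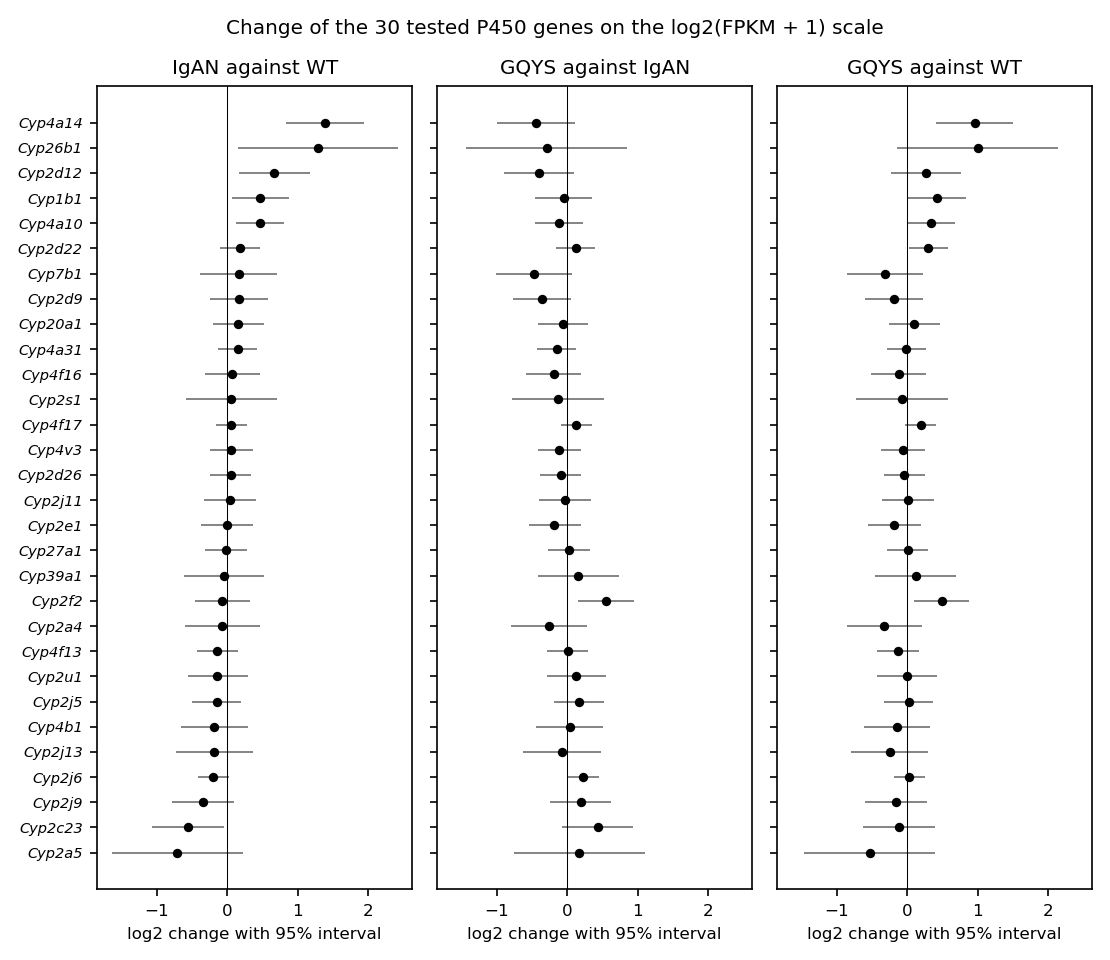
Log2 change on the log2(FPKM + 1) scale of the 30 tested P450 genes in each comparison, ordered by the change in IgAN against WT, with points for the limma estimate and lines for its 95% interval. Cyp4a14, at 1.39, stands at the top of the left panel, and 24, 28 and 26 of the 30 intervals include 0 from left to right.

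Among the fatty acid hydroxylases of family 4, Cyp4a14 came closest to a call. This lauric acid hydroxylase is a standard PPAR-alpha target in mice. It stood at 7.41, 12.3 and 6.35 FPKM in WT replicates 1 to 3, at 17.9, 29.7 and 24.7 in IgAN and at 14.2, 17.1 and 20.8 in GQYS. Both knock-in groups lay wholly above WT and overlapped each other. The mean was 24.1 ± 5.93 in IgAN against 8.70 ± 3.19 in WT (SD, n = 3 each), 2.77-fold, with a limma log2 change of 1.39 (SE 0.25, 95% interval 0.84 to 1.94). Its unadjusted p was 0.000217 and its adjusted p 0.0549, just over the threshold. In GQYS, at 17.4 ± 3.31, the log2 change was -0.44 against IgAN (interval -0.99 to 0.11, adjusted p 0.62) and 0.96 against WT (unadjusted p 0.00308, adjusted p 0.678).

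The call on Cyp4a14 turned with the processing. Over 21 alternatives its log2 change in IgAN against WT stayed between 1.16 and 1.65, and its adjusted p ran from 0.0198 to 0.205. It passed under 5 of them, among these without WT replicate 2, its highest WT library, where the adjusted p was 0.0361, and without WT and IgAN replicate 1 together, where it was 0.043. Without WT replicate 3 the adjusted p was 0.154, and without IgAN replicate 3 it was 0.205. The 5 clock genes measured, none of them at 0, summed to 13.4 to 18.7 FPKM in WT, 21.2 to 30.1 in IgAN and 25.3 to 32.9 in GQYS. Much of that sum was Nr1d1, at 4.48 to 7.09, 5.36 to 15.6 and 15.2 to 22.1 in these groups, and each of the 5 genes overlapped between IgAN and WT. In GQYS against IgAN the clock genes did not move together. Dbp lay wholly higher (4.67 to 7.89 against 1.1 to 2.41). Bmal1 (0.914 to 1.2 against 1.24 to 1.9) and Per2 (2.26 to 3.07 against 5.01 to 7.61) lay wholly lower. Per1 and Nr1d1 overlapped. The part of the clock genes in the result was not tested. The 7 markers of the early proximal tubule, none at 0, summed to 2328 to 2992 FPKM in WT, 2391 to 2635 in IgAN and 2609 to 2888 in GQYS, which overlap. Most of that sum was Slc34a1, at 1437 to 1889 over all libraries. The 5 markers of the last tubule segment, S3, summed to 788 to 1130 in WT, 757 to 1014 in IgAN and 753 to 931 in GQYS. Of these, Slc5a1 (12.2 to 17.3 in WT, 19.9 to 25.8 in IgAN) and Slc22a13 (13 to 16.8, 19.6 to 22.4) lay higher in IgAN. Slc22a7, Slc7a13 and Acsm3 overlapped between IgAN and WT. The part of these markers was not tested. In whole kidney, fewer cells of a type and less RNA per cell cannot be told apart.

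Cyp4a10, a fatty acid hydroxylase and PPAR-alpha target like Cyp4a14, was at 126, 162 and 119 FPKM in WT, 154, 211 and 197 in IgAN and 181, 174 and 157 in GQYS. IgAN and WT overlapped through WT replicate 2 and IgAN replicate 1. The mean ratio of IgAN to WT was 1.38, with a log2 change of 0.46 (SE 0.15, limma unadjusted p 0.0128, adjusted p 0.293). Cyp4a31, with 96.6% of its coding sequence in common with Cyp4a10, was flat by comparison, at 121 to 162 FPKM over all libraries and a log2 change of 0.15 (interval -0.13 to 0.42). Both may share reads, so the 2 values are not separate evidence.

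Cyp4b1 was at 1566, 2681 and 2458 FPKM in WT, 1570, 2333 and 1941 in IgAN and 2036, 2021 and 1860 in GQYS. The groups overlapped widely, and replicate 1 of both WT and IgAN was low. Its log2 change was -0.18 in IgAN against WT (interval -0.65 to 0.29, limma adjusted p 0.865), 0.04 in GQYS against IgAN (-0.44 to 0.51) and -0.14 in GQYS against WT (-0.61 to 0.33). Log2 changes from -0.65 to 0.51 thus lie within one interval or another.

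Of the 8 family 4 genes tested, 6 had a positive and 2 a negative log2 change in IgAN against WT, with a median of 0.07. Cyp4f17 was the steadiest tested member, with a coefficient of variation of 9.3% over the 9 libraries. It was at 2.71, 2.78 and 3.07 FPKM in WT, 3.26, 2.81 and 2.98 in IgAN and 3.37, 3.52 and 3.29 in GQYS, so that GQYS lay above both other groups by a narrow margin. The limma log2 change was 0.13 against IgAN (adjusted p 0.755) and 0.19 against WT (adjusted p 0.999). Low family 4 genes rested on few reads. Cyp4f18, known from neutrophils as a leukotriene B4 hydroxylase, was at 0.181, 0.409 and 0.144 FPKM in WT, 0.604, 0.427 and 0.552 in IgAN and 0.389, 0.431 and 0.132 in GQYS. IgAN lay above WT by 2.16-fold, and the fit that takes in low genes gave an adjusted p of 0.356, from 13 to 58 reads per library. The 3 neutrophil markers, none of them at 0 in all libraries, summed to 26 to 32.7 FPKM in IgAN, against 1 to 3.29 in WT and 2.17 to 3.21 in GQYS, and their part in the Cyp4f18 values was not tested. Cyp4f15 was at 0.695, 0.797 and 0.895 in WT and at 0.427, 0.196 and 0.589 in GQYS, the only member whose GQYS values all lay below WT (adjusted p 1).

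Of the 6 tested members of the epoxygenase subfamilies 2c and 2j, 5 had a negative log2 change in IgAN against WT, with a median of -0.19, where 5265 of 11617 genes were negative and the median was 0.02. In GQYS against IgAN 4 were positive, with a median of 0.18, where 5998 of 11617 genes were positive and the median was 0.01. None was called in either comparison, and the IgAN libraries enter both. Cyp2c23, an arachidonic acid epoxygenase of the rodent kidney, was at 16.4, 14.9 and 17.6 FPKM in WT, 11.9, 11.2 and 9.42 in IgAN and 23, 10.6 and 13.7 in GQYS. IgAN lay wholly below WT, at 10.8 ± 1.27 against 16.3 ± 1.35 (SD, n = 3 each), while GQYS spread across both. The log2 change in IgAN against WT was -0.55 (SE 0.23, limma unadjusted p 0.0356, adjusted p 0.417), and in GQYS against IgAN it was 0.44 (interval -0.07 to 0.94, adjusted p 0.576).

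Cyp2j6 was low but tight, at 4.11, 4.3 and 4.37 FPKM in WT, 3.48, 3.87 and 3.41 in IgAN and 4.58, 3.99 and 4.56 in GQYS. IgAN lay below WT and GQYS above IgAN with no overlap, with log2 changes of -0.20 (adjusted p 0.553) and 0.23 (interval 0.01 to 0.45, limma unadjusted p 0.0449, adjusted p 0.46). Cyp2j5, the abundant renal epoxygenase, was at 574, 798 and 787 in WT, 541, 709 and 689 in IgAN and 749, 739 and 677 in GQYS. Its groups overlapped, with a log2 change of -0.15 in IgAN against WT (interval -0.50 to 0.20). Cyp2j9 had a ratio of 0.704 (log2 change -0.34, interval -0.78 to 0.10), and Cyp2j11 was level at 80.6, 83 and 81 FPKM by group mean. Cyp2j13, at 71.8 to 134 FPKM, had a log2 change of -0.18 in IgAN against WT (adjusted p 0.888), which became -0.56 with an adjusted p of 0.0305 once the mitochondrial share of each library entered the model. The model used the mitochondrial share of FPKM. As a share of reads, given above, it was highest in WT replicate 1, where Cyp2j13 was lowest.

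Cyp2c68 and Cyp2c69, whose coding sequences are nearly the same, were scarce and highest in GQYS. Cyp2c68 was at 0.467, 0.0717 and 0.443 FPKM in WT, 0.0716, 0.223 and 0.213 in IgAN and 1.03, 0.523 and 0.769 in GQYS. All GQYS values lay above those of both other groups. The ratio of GQYS to IgAN was 4.57, and the fit with low genes gave a log2 change of 0.59 (interval 0.28 to 0.90, unadjusted p 0.00163, adjusted p 0.157) from 4 to 63 reads per library. Cyp2c69 was at 0.289, 0.769 and 0.932 in WT, 0.517, 0.527 and 0.676 in IgAN and 0.859, 0.869 and 0.865 in GQYS. Its GQYS values lay above IgAN, with an adjusted p of 0.561. The 5 markers of carried-over liver summed to 111 to 136 FPKM in WT, 75.8 to 154 in IgAN and 54.9 to 116 in GQYS. Alb was at 12.4, 3 and 7.22 in GQYS, the order of Cyp2c68, against 3.85 to 6.2 in the other libraries. Apoa1 had this order too, at 2.29, 0.268 and 1.84, against 0.501 to 1.69. Ttr, Serpina1a and Fgb did not. The part of liver carry-over in the Cyp2c68 values was not tested. Cyp2j8 was at 0.118, 0.157 and 0.104 in WT and 0.0904, 0.0537 and 0.0138 in IgAN, lower with no overlap (adjusted p 0.783), from as little as 1 read in a library. It met the description threshold through the WT libraries and GQYS replicate 3, with no IgAN library at it. The threshold thus favoured this separation, which is no result of its own.

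Of family 1, Cyp1b1, which oxidises polycyclic hydrocarbons and oestradiol, was at 4.76, 6.47 and 4.37 FPKM in WT, 5.88, 7.3 and 9.81 in IgAN and 7.86, 7.51 and 6.34 in GQYS. Both knock-in groups had higher means, and WT replicate 2 lay within their ranges. The log2 change was 0.47 in IgAN against WT (SE 0.18, limma unadjusted p 0.0272, adjusted p 0.381), -0.05 in GQYS against IgAN and 0.42 in GQYS against WT (adjusted p 0.999). Cyp1a1, the usual readout of AHR activation, whose GCGTG motif is shown above, was barely present, at 0.132 to 0.438 FPKM in WT, 0.364 to 0.579 in IgAN and 0.286 to 0.514 in GQYS. These ranges overlap (adjusted p 0.503 in IgAN against WT and 0.72 in GQYS against IgAN). Cyp1a2 was at no more than 0.0451 FPKM in any library.

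**Figure D3:**
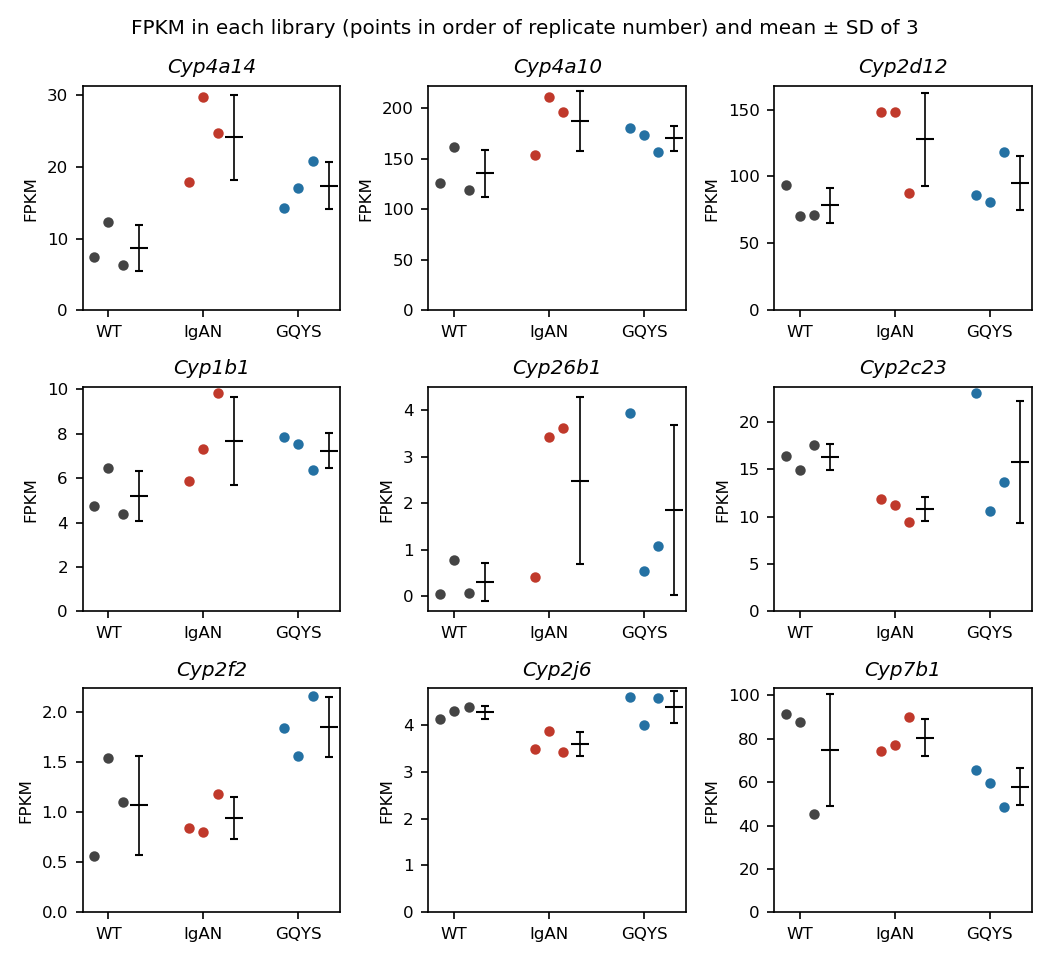
FPKM of 9 P450 genes in each library, points in order of replicate number, with the mean ± SD of 3 libraries as a black bar to their right, for WT, IgAN and GQYS. The IgAN points of Cyp4a14 (17.9 to 29.7) lie above all WT points (6.35 to 12.3), those of Cyp2c23 (9.42 to 11.9) lie below (14.9 to 17.6), and Cyp26b1 scatters within IgAN and within GQYS.

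The other xenobiotic members of families 2 and 3 included the largest number of tested genes, 10, of which 5 had a positive and 5 a negative log2 change in IgAN against WT, with a median of 0.02. Cyp2d12 was at 93.4, 70.3 and 71.4 FPKM in WT, 148, 148 and 87.8 in IgAN and 85.9, 81.1 and 118 in GQYS. Of the IgAN libraries replicates 1 and 2 stood above all others, and replicate 3 lay within the WT range. The ratio of IgAN to WT was 1.63 and the log2 change 0.67 (SE 0.22, limma unadjusted p 0.0135, adjusted p 0.294). Cyp2d9, 92.1% identical to it and known as a male-biased testosterone 16α-hydroxylase, had means of 106 ± 14.6 (WT), 119 ± 14.4 (IgAN) and 94.4 ± 25 FPKM (GQYS; SD, n = 3 each), with adjusted p of 0.849 in IgAN against WT and 0.588 in GQYS against IgAN. Cyp2d26 was among the steadiest of the abundant members, at 58.7 to 77.6 FPKM over all libraries. Cyp2d22 was at 5.98 to 7.79 FPKM in WT and 7.62 to 9.35 in GQYS, overlapping, with a log2 change of 0.30 (limma unadjusted p 0.0401, adjusted p 0.999).

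Cyp2f2, a naphthalene-activating enzyme best known from lung club cells, had the smallest p of the 30 members at 1 FPKM or more in GQYS against IgAN. It was at 0.562, 1.54 and 1.1 FPKM in WT, 0.844, 0.8 and 1.18 in IgAN and 1.84, 1.56 and 2.16 in GQYS. GQYS lay above both other groups, narrowly so over WT replicate 2. The ratio of GQYS to IgAN was 1.96 and the log2 change 0.55 (SE 0.18, interval 0.16 to 0.95, limma unadjusted p 0.0104, adjusted p 0.293), from 36 to 123 reads per library. Over the alternatives the adjusted p ran from 0.0483, with library quality weights, the single setting of 21 that passed, to 0.806 without GQYS replicate 3. Cyp2d10 was at 0.158, 0.125 and 0.187 FPKM in GQYS and at most at 0.096 elsewhere, from 1 to 10 reads per library. It met the threshold of 0.1 FPKM through the 3 GQYS libraries alone, so this separation was fixed by the threshold.

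Cyp2e1 was at 854, 1167 and 1247 FPKM in WT, 933, 1245 and 1063 in IgAN and 996, 980 and 875 in GQYS, with overlap between all groups and intervals of -0.37 to 0.36 and -0.54 to 0.19 for its log2 change in IgAN against WT and GQYS against IgAN. Cyp2a4 was at 462, 399 and 326 in WT, 468, 363 and 308 in IgAN and 446, 236 and 289 in GQYS. Replicate 1 was the highest library of each group for this gene. Cyp2a5, a coumarin 7-hydroxylase, ranged further, from 33.1 to 130 FPKM, with 58.8, 86.4 and 130 in WT, 94, 47.6 and 33.1 in IgAN and 89.1, 37.9 and 63.4 in GQYS. Its log2 change in IgAN against WT was -0.71 with an interval of -1.64 to 0.23 (adjusted p 0.626), the widest of the abundant members. Cyp2s1, an epithelial member, was at 10.1 in IgAN replicate 1 and at 3.56 to 5.2 in the 8 other libraries.

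The sterol and bile acid hydroxylases held 3 tested genes. Cyp7b1, which 7α-hydroxylates oxysterols and DHEA and is higher in male mouse kidney, was at 91.4, 87.9 and 45.1 FPKM in WT, 74.3, 76.9 and 90.1 in IgAN and 65.4, 59.7 and 48.6 in GQYS. GQYS lay wholly below IgAN, at a ratio of 0.72, while WT spanned both. The log2 change in GQYS against IgAN was -0.47 (interval -1.01 to 0.07, limma adjusted p 0.573). Cyp27a1, the mitochondrial sterol 27-hydroxylase, was level at 18.9 ± 1.73, 18.8 ± 3.44 and 19 ± 0.742 FPKM for WT, IgAN and GQYS (SD, n = 3 each), with an interval of -0.31 to 0.28 in IgAN against WT. Cyp39a1, an oxysterol 7α-hydroxylase, ranged from 1.01 in WT replicate 1 to 2.93 in GQYS replicate 2 without a group order. Cyp46a1, the cholesterol 24-hydroxylase of neurons, was at 0.196 to 0.478.

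Of the enzymes that clear retinoic acid, Cyp26b1 was the most scattered tested member, with a coefficient of variation of 105% against a median of 18.8%. It was at 0.0524, 0.768 and 0.0751 FPKM in WT, 0.416, 3.43 and 3.61 in IgAN and 3.94, 0.55 and 1.08 in GQYS. High values occurred in IgAN replicates 2 and 3 and in GQYS replicate 1, and IgAN replicate 1 lay below WT replicate 2. No WT library reached the 1 FPKM of the test, which Cyp26b1 entered through IgAN and GQYS libraries alone. The ratio of the means of IgAN and WT was 8.33, and the log2 change 1.29 (SE 0.51, interval 0.15 to 2.42, limma unadjusted p 0.0308, adjusted p 0.395). Against WT, GQYS had a log2 change of 1.0 (interval -0.14 to 2.14). Cyp26a1 stayed between 0.115 and 0.384 FPKM. Cyp20a1, an orphan enzyme with no settled substrate, had means of 6.83 ± 1.64 FPKM (WT), 7.66 ± 1.12 (IgAN) and 7.26 ± 0.119 (GQYS; SD, n = 3 each).

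Several abundant members were high and low in the same libraries. The tested genes whose log2(FPKM + 1) ran most like that of Cyp4b1 over the 9 libraries, among 11616 compared, were Pm20d1 (Pearson r 0.98), Med14 (0.98), Mfap3l (0.97), Cyp2j13 (0.97) and Slc6a20b (0.97). Cyp2j5 followed at 0.91, rank 224, and Cyp2e1 at 0.87, rank 602. Cyp4a14, Cyp4a31 and Cyp2a4 did not follow, at -0.05, -0.14 and -0.26. These values describe 9 points that share library, depth and RNA quality, and they carry no test. The tubular endocytosis receptor Lrp2 was low in the same libraries as Cyp4b1, at 91.9 FPKM in WT replicate 1 and 117 in IgAN replicate 1, against 135 to 222 in the others. Of the other markers of the early proximal tubule, Slc5a12, at 37 and 33.2, and Cubn, at 30.6 and 33.1, had their lowest values there. Slc22a8 did not, at 216 and 174 against 122 to 199 in the other libraries. Slc5a2 was at 233 and 206, against 224 to 260, and Slc22a6 at 235 and 270, against 257 to 319. Slc34a1, at 1485 and 1557, lay above WT replicate 2 (1437) and below the 6 remaining libraries.

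**Figure D4:**
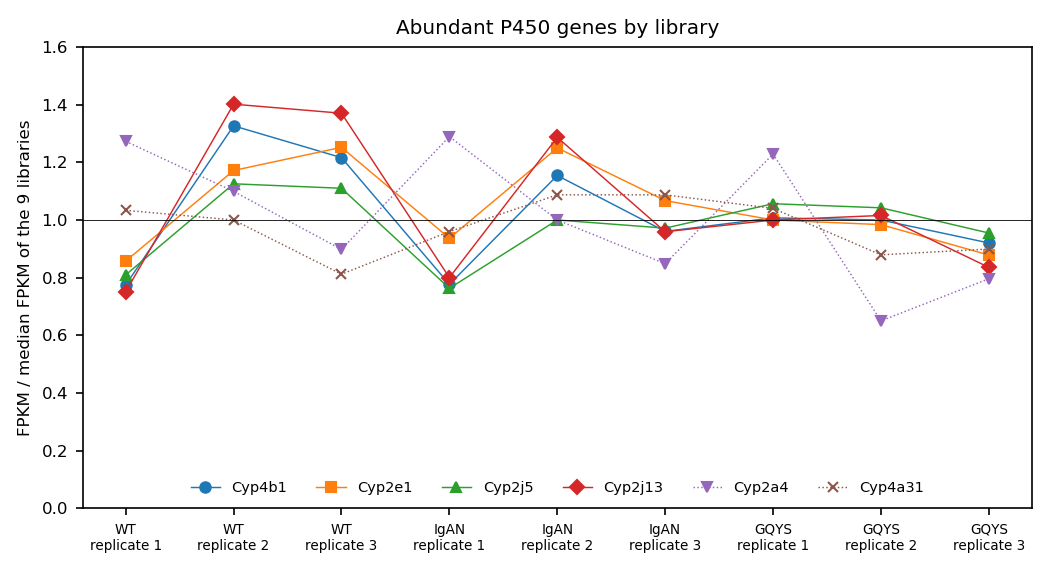
FPKM of 6 abundant P450 genes in each library, divided by that gene's median over the 9 libraries. Cyp4b1, Cyp2e1, Cyp2j5 and Cyp2j13 are low in replicate 1 of WT and of IgAN and high in WT replicates 2 and 3, while Cyp2a4 is highest in replicate 1 of each group.

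The genes that serve or control the P450 enzymes were counted too. Of 10 tested redox partners and epoxide hydrolases 0 passed in any of the 3 comparisons, with 0 at an unadjusted p under 0.05 in limma. Among them were Cyb5a, cytochrome b5, with means of 1107 ± 149 FPKM (WT), 933 ± 69.7 (IgAN) and 1071 ± 160 (GQYS), and Ephx2, the hydrolase that ends EET signalling, at 238 ± 6.49, 242 ± 16.6 and 213 ± 22.4 (SD, n = 3 each). The largest of their changes was a log2 change of -0.24, for Cyb5a in IgAN against WT (adjusted p 0.628).

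Of 17 tested receptors that regulate P450 genes 0 passed, with 0 at an unadjusted p under 0.05 in IgAN against WT, 1 in GQYS against IgAN and 3 in GQYS against WT, against 10.3%, 10.4% and 4.43% of all genes. Nr1i2, the xenobiotic receptor PXR, had a log2 change of 0.50 in GQYS against IgAN (limma adjusted p 0.487), and its target Cyp3a11 was at or under 0.249 FPKM in all libraries.

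Of 12 tested other targets of AHR and PPAR-alpha 0 passed, with 3, 0 and 4 at an unadjusted p under 0.05 in these comparisons in turn, where 10.3%, 10.4% and 4.43% of all genes stood. Their median log2 change in IgAN against WT was 0.25, against 0.02 over all genes. Pdk4, a PPAR-alpha target that blocks glucose oxidation in fasting, had means of 5.92 ± 1.73 FPKM (WT), 24 ± 13.7 (IgAN) and 20 ± 13.1 (GQYS; SD, n = 3 each), with a log2 change of 1.75 in IgAN against WT (limma unadjusted p 0.00262, adjusted p 0.158) and 1.45 in GQYS against WT (adjusted p 0.875). Acaa1b, a peroxisomal thiolase, was at 125 ± 12.7, 160 ± 5.68 and 138 ± 14.3 FPKM for WT, IgAN and GQYS, with a log2 change of 0.35 in IgAN against WT (adjusted p 0.274). Like Cyp4a14 and Cyp4a10, these genes had higher means in IgAN than in WT without passing the threshold.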

How the data were processed

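RNA was sequenced from 9 kidney libraries, 3 per group, and the values used are FPKM as the authors deposited them, for 26139 symbols. Build GRCm39 and the tools HISAT2, HTSeq, fastp, DESeq2 and R 3.2.0 stand in the submitters' processing notes without their roles. The sources used here do not give the annotation, the strand setting or the treatment of reads that map to several genes, so near-identical members and antisense genes may share reads. The FPKM values moved in whole-read steps for 26139 of 26139 genes (within 0.03 reads), which gave the library totals.

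The main fit was limma 3.58.1 in R 4.3.3 on log2(FPKM + 1), a pseudocount of 1, with empirical Bayes and a mean-variance trend over all 9 libraries, for genes at 1 FPKM or more in at least 3 libraries. A log2 change on this scale understates the change of low genes. A fold is the ratio of mean FPKM. The model was also run on simulated data with independent noise per gene and no effects shared within a library. That simulation therefore cannot show how the model behaves with libraries that stand apart.

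The members and lists were chosen with earlier results of these data known. Named members were Cyp4b1, the 8 with the smallest p per comparison, the 15 most abundant, the highest of each role, those with ranges apart in at least 2 comparisons and those at the threshold. Cyp1a1, Cyp26a1, Cyp2c69, Cyp2s1, Cyp39a1, Cyp46a1, Cyp4f15 and Cyp4f18 were added after their values were seen. That rule compares proteins at 90% identity; coding sequences of GENCODE M21 were compared in their place, for 82 of 82 members. Python 3.11.15 with pandas 2.3.3 and matplotlib 3.10.9 served for tables and figures. Some genes of the counted lists are not reported here by name.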

Additional observations from a re-analysis of the deposited data

How the results depend on the processing

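Over 21 alternatives (pseudocount, filter, scaling, replicate block, samples in the fit, weights, covariate, trend, voom, and each library left out), the number of P450 genes called in IgAN against WT moved from 0 to 1 with library quality weights and without WT and IgAN replicate 1, in both cases Cyp4a14, and to 2 with the mitochondrial share as a covariate, Cyp4a14 and Cyp2j13. Leaving out 1 library at a time gave 0 to 1, the 1 without WT replicate 2. In GQYS against IgAN the number moved from 0 to 1 with quality weights (Cyp2f2), and in GQYS against WT it was 0 under all 21. The cause was not tested. Over all genes, quality weights moved the calls from 41 to 655 in IgAN against WT and from 23 to 404 in GQYS against IgAN, and the mitochondrial covariate moved them to 636 and 308. Fitting only the 2 groups compared gave 11 and 43. With no filter the 2 counts were 21 and 13. Leaving out 1 library gave 13 genes (without IgAN replicate 3) to 64 (without WT replicate 1) in IgAN against WT, and 6 (without IgAN replicate 2 or GQYS replicate 3) to 55 (without WT replicate 1) in GQYS against IgAN. In GQYS against WT, quality weights called 53 genes in place of 0. Of 1512 values for 24 named members, 1505 kept their side of the threshold and 7 passed it; 89 changed sign, in all cases changes that no fit called.

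Same-numbered libraries did not vary together throughout, with correlations of their deviations from -0.36 to 0.58, so the numbers were not taken as pairs. With the replicate number as a block, 1 member was called in IgAN against WT, Cyp4a14 at an adjusted p of 0.0198, among 68 genes in all. In GQYS against IgAN 0 members of 26 genes were called with the block, and in GQYS against WT 0 of 0.

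Each group held 3 libraries. Members under 1 FPKM rested on few reads, down to 1 read in a library for Cyp2d10 and Cyp2j8 and 0 for Cyp3a11, where a change was hard to detect at this depth.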
